A study of Homo sapiens with 8 samples.

Results

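The 40 genes described here encode the enzymes and transporters of glycolysis and lactate handling, and the oxygen-sensing system of the hypoxia-inducible factors (HIF) with a set of its known target genes. They were taken as a list of names, and all 40 are among the 17309 genes of the count table. RNA-seq was performed on 2 lines derived from human colorectal tumours, SW480 and DLD-1. Each line was infected with a control short hairpin virus (shControl) or with a virus carrying a hairpin against NAT10 (shNAT10), the RNA acetyltransferase that writes N4-acetylcytidine. The groups SW480 shControl, SW480 shNAT10, DLD-1 shControl and DLD-1 shNAT10 had 2 libraries each, labelled as biological replicates, which made 8 libraries in all. All cells were grown in serum-containing medium in an ordinary CO2 incubator, and the labels name no hypoxia treatment, so every value below is a level under routine culture. Each line stands for itself and not for a class of tumours, and the labels do not say which NAT10 hairpin was used.

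Total counts ranged from 15147805 to 17271336 per library. The SW480 shNAT10 replicates lay further apart than other replicates, by a median of 0.145 log2 units over all genes, against 0.0901 to 0.0986 in the other groups. Levels in a library are given as CPM, the count of a gene scaled to library size with TMM normalization. For NAT10 itself, the SW480 libraries held 122 and 122 CPM with shControl against 23.6 and 27.9 with shNAT10, and the DLD-1 libraries 121 and 121 CPM against 59 and 54.4. The groups did not overlap within either line, and the log2 fold change was -2.25 ± 0.087 (SE) in SW480 and -1.09 ± 0.081 in DLD-1 (edgeR quasi-likelihood test, adjusted p = 3.7e-09 and 2.7e-05). Of 10 colorectal epithelial markers, 9 were in the table. Their summed level was 3169 to 3929 CPM over the SW480 libraries and 7481 to 8074 CPM over the DLD-1 libraries. EPCAM, KRT8, KRT18, KRT19, CDH1 and CDX2 were present in both lines and higher in DLD-1 under shControl. VIL1 (14.5 against 5.43 CPM as shControl means) and LGALS4 (2.08 against 1 CPM) were higher in SW480. GPA33 was at 0.322 to 0.646 CPM as group means, and CDX1 was the absent marker. The 3 blood cell markers in the table summed to at most 1.64 CPM, and the 7 markers of fibroblasts and endothelium to at most 6.27 CPM.

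Glycolysis splits glucose into pyruvate through an investment phase, which ends at aldolase and triose phosphate isomerase, and a payoff phase, which yields ATP. Tumour cells often convert much of the pyruvate to lactate even when oxygen is present, and export it through monocarboxylate transporters. HIF is a pair of an alpha and a beta subunit. With oxygen, prolyl hydroxylases mark the alpha subunit for destruction. Without oxygen the alpha subunit is stable, and the pair binds a short core in DNA and activates many glycolytic genes, which is why both groups of genes are usually read together. HIF alpha is controlled mainly as a protein, so its mRNA level does not report its activity.

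The core bound by HIF is ACGTG or GCGTG. These letters were searched on both strands in the 250 bases before the transcription starts that RefSeq lists (GRCh38.p14). A palindromic CACGTG, which holds ACGTG on both strands and is also the core of other factors, was counted once. Of the 40 genes, 35 had an entry, and SLC16A1, BNIP3L, VEGFA, SLC2A3 and NDRG1 had none. The letters were in 38 of the 65 windows of these genes (58.5%), and in 15172 of all 35116 windows (43.2%). The windows of 6 genes on which the results below turn are printed here 5′ to 3′ on the gene's strand, with the matched letters in capitals. They are ALDOC (chr17:28576896-28577145, minus strand), ENO2 (chr12:6914330-6914579, plus), SLC2A1 (chr1:42958869-42959118, minus), PFKL (chr21:44299803-44300052, plus), CA9 (chr9:35673678-35673927, plus) and BNIP3 (chr10:131981924-131982173, minus).
ALDOC: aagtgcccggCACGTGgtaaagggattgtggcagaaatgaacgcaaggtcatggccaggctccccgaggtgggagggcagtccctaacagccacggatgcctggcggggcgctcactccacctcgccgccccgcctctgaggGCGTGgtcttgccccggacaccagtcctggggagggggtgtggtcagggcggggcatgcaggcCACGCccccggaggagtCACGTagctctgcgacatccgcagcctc
ENO2: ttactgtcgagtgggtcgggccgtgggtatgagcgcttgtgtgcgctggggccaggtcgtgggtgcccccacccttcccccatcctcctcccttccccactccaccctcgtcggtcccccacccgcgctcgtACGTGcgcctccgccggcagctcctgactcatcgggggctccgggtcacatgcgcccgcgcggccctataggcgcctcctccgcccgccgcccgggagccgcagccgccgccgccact
SLC2A1: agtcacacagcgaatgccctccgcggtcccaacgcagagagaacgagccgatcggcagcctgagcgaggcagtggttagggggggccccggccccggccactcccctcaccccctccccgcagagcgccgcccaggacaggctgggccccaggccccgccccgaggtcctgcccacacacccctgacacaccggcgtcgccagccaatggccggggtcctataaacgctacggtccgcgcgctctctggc
PFKL: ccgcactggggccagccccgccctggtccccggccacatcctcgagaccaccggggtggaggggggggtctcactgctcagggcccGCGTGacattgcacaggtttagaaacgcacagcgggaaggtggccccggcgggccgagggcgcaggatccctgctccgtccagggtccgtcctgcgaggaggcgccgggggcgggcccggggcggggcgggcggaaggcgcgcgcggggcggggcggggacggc
CA9: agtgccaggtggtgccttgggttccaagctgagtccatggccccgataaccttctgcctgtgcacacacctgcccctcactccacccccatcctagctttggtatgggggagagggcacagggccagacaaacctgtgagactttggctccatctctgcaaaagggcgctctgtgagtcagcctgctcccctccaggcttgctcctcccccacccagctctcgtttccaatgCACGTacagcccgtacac
BNIP3: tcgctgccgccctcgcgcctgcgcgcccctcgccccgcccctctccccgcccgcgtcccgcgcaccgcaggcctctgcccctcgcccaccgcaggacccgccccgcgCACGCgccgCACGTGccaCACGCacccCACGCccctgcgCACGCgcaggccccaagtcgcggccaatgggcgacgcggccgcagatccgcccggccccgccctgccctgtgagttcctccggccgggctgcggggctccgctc
BNIP3 had 5 matches and ALDOC 4. ENO2, PFKL and CA9 had 1 each, and SLC2A1 had none in this window. BNIP3 was among the lowest of the 40 genes in both lines, and SLC2A1 ranked 9th in SW480. LDHA, by contrast, had 3 matches in a window and ranked 6th in SW480 and 7th in DLD-1. Whether matches and levels go together was not tested. A match is a stretch of letters and not a shown binding site.

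Levels between genes were compared per transcript length, as FPKM summed over the transcripts of a gene and averaged over the 2 shControl libraries. GAPDH, the dehydrogenase that opens the payoff phase, was highest in both lines, with 8429 FPKM in SW480 and 8182 FPKM in DLD-1. ENO1, the main enolase, followed with 1960 and 1710 FPKM, and PKM, the pyruvate kinase, with 1260 and 1408 FPKM. TPI1, LDHA, LDHB and ALDOA filled the next ranks in both lines, all between 748 and 1186 FPKM. The largest differences in rank were those of SLC2A3, which was the 12th highest of 40 in SW480 and the 38th in DLD-1, and of EPAS1, at rank 15 and 36. ALDOC moved from rank 26 to 37 and NDRG1 from 17 to 32. Several of the most abundant members, GAPDH among them, have processed pseudogenes, and the table lists only coding transcripts, so reads from such copies cannot be told apart from those of the gene.

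**Figure D1:**
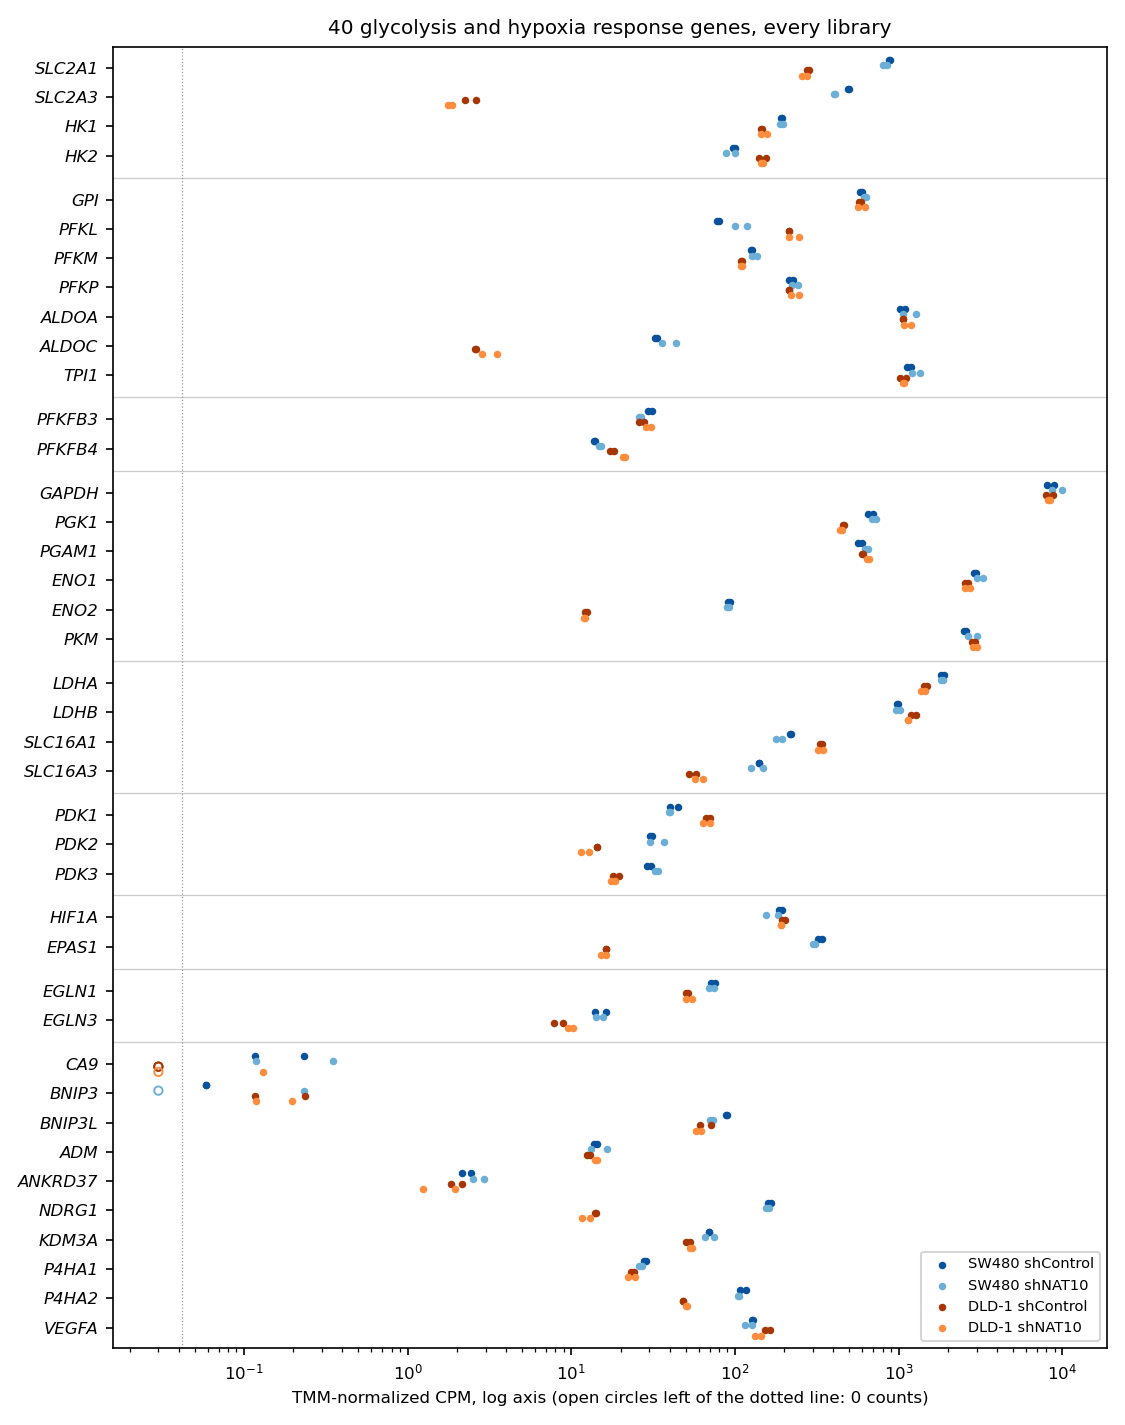
TMM-normalized CPM on a log axis for the 40 genes in each of the 8 libraries, 1 point per library, with lines between the roles from glucose uptake at the top to other HIF targets at the bottom. The lines separate widely for SLC2A3, ALDOC, ENO2, EPAS1 and NDRG1, while GAPDH sits between 7960 and 9945 CPM in all 8 libraries and CA9 and BNIP3 lie at or near 0 counts (open circles).

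The SW480 and DLD-1 libraries were compared first, because all genes differed more between the lines (median of 0.54 log2 units without regard to sign, under shControl) than between the hairpins (0.128 in SW480 and 0.0781 in DLD-1). Each value is an average over the cells of a culture, so fewer expressing cells and less RNA per cell cannot be told apart. Of the 40 genes, 38 passed the filter on low counts. In the shControl libraries, 20 of 38 were higher in SW480, against 38.1% of the 13619 genes tested, and 7 were lower, against 35.6% (edgeR, adjusted p under 0.05). The share of genes that differed at all, 27 of 38, was thus close to the 10046 of 13619 in the background, while the split leaned toward SW480. With a fold of 2 or more required as well, 9 members were higher in SW480 (background 17.6%) and 1 was lower (background 11.6%). The median log2 fold change of the members was 0.21, and that of all genes was 0.01. With a correction for GC content the median of all genes was 0.113, and no alternative took the members' median below 0.202. With FPKM values only 20 members could be tested. The median of these 20 was 0.407 with a pseudocount of 1 and 0.427 with 0.1. It covers a different set of members from the 0.21 and cannot be compared with it. Without regard to sign, the members' median was 0.41 and that of all genes 0.54, so the median member differed by no more than the median gene. The shControl libraries of the 2 lines did not overlap for 34 of 38 members, against 87.7% of all genes.

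The shNAT10 libraries gave the same comparison in separate samples. There 21 of 38 were higher in SW480 (background 38.2%) and 7 lower (background 36.3%), and at a fold of 2 or more 9 were higher (background 17.6%) and 1 lower (background 12.1%). Under shControl and shNAT10 alike, 19 members were higher and 7 were lower in SW480, and none was called in opposite directions. Among all 13619 genes, 4692 were higher and 4338 lower in both comparisons, and only 7 were called in opposite directions. The 2 estimates of the line difference lay a median of 0.11 log2 units apart for the members and 0.15 for all genes. The exceptions were P4HA1, higher only in the shControl comparison, and TPI1 and ANKRD37, higher only in the shNAT10 comparison, and none of these 3 passed the test of the difference between the 2 comparisons (adjusted p = 0.88, 0.67 and 0.65).

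The largest line difference among the members was that of a glucose transporter mRNA. SLC2A3 encodes GLUT3, the high-affinity glucose transporter known from neurons (chr12:7919230-7936187, gene identifier 6515). In SW480 its level was 490 and 500 CPM with shControl and 402 and 411 with shNAT10, and in DLD-1 it was 2.23 and 2.6 CPM and then 1.88 and 1.77. All 4 SW480 libraries lay far above all 4 DLD-1 libraries, and the difference under shControl was 204-fold (log2 7.67 ± 0.097, adjusted p = 6.3e-16). SLC2A14, a near-identical copy whose reads may be shared with SLC2A3, had at most 15 counts in any library. SLC2A1, the widely expressed GLUT1, was at 875, 882, 844 and 804 CPM in the SW480 libraries (shControl first) and 283, 275, 274 and 258 CPM in those of DLD-1. It was 3.15-fold higher in SW480 under shControl (log2 1.65 ± 0.065, adjusted p = 1.1e-11). Of the hexokinases, which trap glucose in the cell, HK1 was higher in SW480 by 0.41 ± 0.064 on the log2 scale and HK2 was lower by 0.58 ± 0.076 (adjusted p = 4.1e-05 and 7.1e-06). HK2 was at 96.9, 100, 88.1 and 99.5 CPM in SW480 and at 140, 155, 148 and 145 CPM in DLD-1, with no overlap. All 4 genes of uptake and phosphorylation thus passed the test, 3 higher and 1 lower in SW480, where 10046 of all 13619 genes passed.

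Of the 7 genes of the hexose phosphate and aldolase steps, 2 were higher in SW480 under shControl (background 38.1%). Of the others, 1 was lower (background 35.6%) and 4 did not pass. PFKL, the liver-type phosphofructokinase that commits sugar to glycolysis (chr21:44300053-44327373, identifier 5211), was the member lowest in SW480 relative to DLD-1. In SW480 it was at 79.8 and 77.3 CPM with shControl and 118 and 99.6 with shNAT10, and in DLD-1 at 214 and 213 CPM and then 245 and 214. The lines did not overlap, and the level in DLD-1 was 2.72-fold that in SW480 under shControl (log2 -1.44 ± 0.086, adjusted p = 1.3e-09). The muscle type PFKM was 1.15-fold higher in SW480 (adjusted p = 0.012), a call lost with a correction for GC content (adjusted p = 0.085) and without either SW480 shControl library or DLD-1 shControl replicate 1 (0.064, 0.053 and 0.07). By comparison, the platelet type PFKP was at 226 and 214 CPM against 213 and 213, which did not pass (adjusted p = 0.59). ALDOC, the brain-type aldolase (chr17:28573120-28576895, identifier 230), was at 32.5, 33.3, 43.5 and 36.1 CPM in SW480 and at 2.58, 2.6, 2.83 and 3.54 CPM in DLD-1. Every SW480 library was above every DLD-1 library, by 12.6-fold under shControl (log2 3.66 ± 0.15, adjusted p = 1.5e-11). The main aldolase ALDOA, in contrast, was at 1090 and 1022 CPM against 1061 and 1070 (log2 fold change -0.012 ± 0.087, adjusted p = 0.91), and GPI, the isomerase before it, at 598 and 579 against 586 and 570 (adjusted p = 0.73).

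PFKFB3 and PFKFB4 make and break fructose 2,6-bisphosphate, the main activator of phosphofructokinase. PFKFB4 was lower in SW480, at 13.9 and 13.7 CPM against 17.3 and 18.3 in the shControl libraries (log2 -0.36 ± 0.10, adjusted p = 0.0045). PFKFB3 was at 29.5 and 31.2 CPM against 26.1 and 27.7 and did not pass (adjusted p = 0.08).

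Of the 6 payoff genes, PGK1, ENO1 and ENO2 were higher in SW480 (background 38.1%), and none was lower (background 35.6%). ENO2, the neuronal enolase, was at 92.8, 90.2, 89.5 and 92.6 CPM in SW480 and at 12.2, 12.4, 12.2 and 11.9 CPM in DLD-1, a 7.44-fold difference under shControl (log2 2.90 ± 0.081, adjusted p = 2.8e-13). Its replicates hardly differed, and the lines were far apart. PGK1, the first ATP-yielding kinase, was at 695, 648, 723 and 691 CPM in SW480 (shControl first) and at 462, 455, 449 and 440 CPM in DLD-1. The difference under shControl was 1.46-fold (adjusted p = 2.1e-06). ENO1 was at 2989 and 2883 CPM against 2648 and 2546 in the shControl libraries (1.13-fold, adjusted p = 0.044). The ENO1 call was lost in 9 of 17 alternatives, among them the correction for GC content (log2 0.09, adjusted p = 0.17) and the fits without any 1 of the 4 shControl libraries (0.07 to 0.19). GAPDH, PGAM1 and PKM did not pass. PKM was lower in SW480 by 0.18 on the log2 scale (adjusted p = 0.057) and crossed the threshold in 6 of 15 alternatives, with the GC correction at -0.26 (adjusted p = 0.0008). For GAPDH the difference was 0.018 ± 0.09 on the log2 scale, at 8846 and 8052 CPM in SW480 shControl and 8724 and 7960 CPM in DLD-1 shControl. PGAM4, a near-identical copy of PGAM1, had at most 16 counts in any library.

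The 4 genes of lactate handling all passed, as did 10046 of all 13619 genes under shControl, and they split by isozyme. LDHA, the muscle-type lactate dehydrogenase, was 1.27-fold higher in SW480 under shControl, at 1891 and 1814 CPM against 1485 and 1430 (adjusted p = 0.00032). LDHB, the heart type, was 1.25-fold higher in DLD-1, at 1274 and 1187 CPM against 997 and 974 (adjusted p = 0.00053). SLC16A3, which encodes MCT4, the transporter typical of lactate-exporting cells, was at 141, 141, 148 and 126 CPM in SW480 and at 52.5, 58, 63.7 and 57.4 CPM in DLD-1 (2.55-fold under shControl, adjusted p = 3.6e-09). SLC16A1, which encodes the more general carrier MCT1, went the other way, at 218, 220, 178 and 195 CPM against 333, 340, 343 and 324 CPM (1.54-fold higher in DLD-1 under shControl, adjusted p = 7.6e-07). Neither transporter overlapped between the lines.

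The pyruvate dehydrogenase kinases, which keep pyruvate out of the mitochondrial cycle, also split. PDK1, the best known HIF target among them, was lower in SW480, at 40, 45.1, 40 and 39.8 CPM against 70.6, 66.8, 63.9 and 70.2 CPM (log2 -0.69 ± 0.083 under shControl, adjusted p = 2.8e-06). PDK2 was higher there, at 31.1, 30.2, 36.7 and 30.3 CPM against 14.3, 14.4, 12.9 and 11.4 CPM (log2 1.09 ± 0.11, adjusted p = 5e-07). PDK3 was higher as well, at 30.8, 29.2, 34 and 32.3 CPM against 18.1, 19.6, 18.4 and 17.5 CPM (log2 0.67 ± 0.091, adjusted p = 1.1e-05).

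Of the HIF alpha subunits, only EPAS1, which encodes HIF-2 alpha, passed in these comparisons. It was at 324, 339, 300 and 309 CPM in SW480 and at 16.3, 16.3, 15.1 and 16.3 CPM in DLD-1. The lines did not overlap and differed 20.3-fold under shControl (log2 4.34 ± 0.077, adjusted p = 3.2e-15). HIF1A was at 186, 194, 155 and 184 CPM in SW480 and at 195, 202, 190 and 191 CPM in DLD-1 and did not pass under shControl (adjusted p = 0.49), although a correction for GC content turned its log2 fold change from -0.06 to 0.30 (adjusted p = 0.00037). The prolyl hydroxylases EGLN1, the main oxygen sensor, and EGLN3, itself HIF-inducible, were both higher in SW480. EGLN1 was at 71.3, 75.8, 69.4 and 74.9 CPM against 49.9, 51.9, 50.3 and 54.7 CPM, and EGLN3 at 14, 16.2, 15.7 and 14.2 CPM against 7.87, 8.88, 9.54 and 10.2 CPM (adjusted p = 2.5e-05 and 2.4e-05 under shControl). Neither overlapped between the lines.

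Of the 10 other HIF targets, 8 were tested. Under shControl 5 were higher in SW480 (background 38.1%) and 1 was lower (background 35.6%). NDRG1, a stress-responsive gene, was at 160, 166, 162 and 154 CPM in SW480 and at 14, 14.1, 13.1 and 11.6 CPM in DLD-1, an 11.6-fold difference (log2 3.53 ± 0.085, adjusted p = 6.2e-14). P4HA2, a collagen prolyl hydroxylase, was at 108, 117, 106 and 105 CPM against 48.3, 48.5, 50.5 and 50.8 CPM (2.32-fold, adjusted p = 1.3e-09). BNIP3L, a mitophagy receptor, KDM3A, a histone demethylase, and P4HA1 were higher by 1.34-fold, 1.34-fold and 1.19-fold. The P4HA1 call (adjusted p = 0.02) was lost with DESeq2 (0.065) and without any 1 of the 4 shControl libraries (0.05 to 0.11). VEGFA, the angiogenic factor, was lower, at 129, 127, 115 and 128 CPM against 163, 153, 145 and 133 CPM (log2 -0.31 ± 0.0735, adjusted p = 0.0017). Its call under shNAT10 (edgeR, adjusted p = 0.027) was lost in 6 of 15 alternatives, among them DESeq2 (0.058). ADM, which encodes the peptide adrenomedullin, and ANKRD37 did not pass (adjusted p = 0.3 and 0.48). The HIF targets therefore did not move as a block: NDRG1 differed 11.6-fold while VEGFA, PDK1 and HK2 lay on the DLD-1 side.

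CA9 and BNIP3, which are often used as markers of hypoxia, were too low to be tested. CA9, the membrane carbonic anhydrase, had 4, 2, 2 and 6 counts in the SW480 libraries and 0, 0, 0 and 2 in those of DLD-1. BNIP3 had 1, 1, 0 and 4 counts in SW480 and 2, 4, 2 and 3 in DLD-1. A count of 0 allows up to 3 counts, or 0.175 to 0.197 CPM depending on the library. Over 4 libraries a line, CA9 had 14 counts in SW480 and 2 in DLD-1 (ratio 6.76, 95% exact binomial interval 1.55 to 61.3) and BNIP3 had 6 and 11 (ratio 0.527, interval 0.16 to 1.55). The intervals cover counting error only. BNIP3L, the close relative of BNIP3, was at 57.6 CPM or more in every library.

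Shares within 9 isozyme families were compared per length, beside the sum of each family. In the glucose transporters SLC2A3 made up 32.9% and 33.2% of the FPKM sum of SLC2A1 and SLC2A3 in SW480 shControl and 0.681% and 0.818% in DLD-1 shControl, and the sum itself was 424 against 90.2 FPKM. Of HIF1A plus EPAS1, EPAS1 took 56.7% and 56.9% in SW480 and 5.93% and 5.92% in DLD-1. PFKL took 17.5% and 17.6% of the phosphofructokinases in SW480 and 38.2% and 38% in DLD-1, with PFKP the largest in both lines. For the sums, the ratio of SW480 to DLD-1 was 4.71 for the glucose transporters, 2.11 for the HIF alpha subunits, 1.38 for the hexokinases, 1.34 for the pyruvate dehydrogenase kinases, 0.807 for the phosphofructokinases, 1.03 for the aldolases, 1.17 for the enolases, 0.993 for the lactate dehydrogenases and 1.09 for the monocarboxylate transporters. Lactate dehydrogenase was divided evenly in SW480, where LDHA took 50% and 49.4%, and leaned to LDHB in DLD-1, where LDHA took 38.2% and 39.2%. ALDOC and ENO2, in spite of their large differences, remained minor isozymes in SW480, at a mean of 2.74% of the aldolases and 2.27% of the enolases. HKDC1, a hexokinase that was not among the 40 genes, took 21.1% and 21.7% of the FPKM sum with HK1 and HK2 in SW480 and 0.0287% and 0.0276% in DLD-1. These shares are descriptions and were not tested.

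PKM gives a muscle-type (M1) and a tumour-type (M2) enzyme by splicing of alternative exons. The M2 transcript NM_002654 took 96.1%, 95.9%, 95.7% and 95.3% of the PKM counts in the SW480 libraries (shControl first) and 93.4%, 94.2%, 94.3% and 94.8% in those of DLD-1. The M1 transcripts took 2.32% to 2.6% in SW480 and 3.67% to 4.71% in DLD-1. M2 was thus the main form in all 8 libraries. The split between transcripts of 1 gene rests on reads of 50 bases and on the counting model.

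The effect of the NAT10 hairpin was compared next, within each line. In SW480, 1 member of 38 rose (background 0.778% of genes) and 1 fell (background 0.903%) at an adjusted p under 0.05. The limits of the study were a fold above 1.2 or below 0.83 with p under 0.05, without a named RNA-seq test. At these limits, with the unadjusted p of edgeR, 2 members were higher (background 4.1%) and 2 were lower (background 4.98%). The median log2 fold change was 0.0061 for the 38 members and -0.0095 for all genes. The median member thus lay close to the median gene.

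PFKL rose in SW480 from 79.8 and 77.3 CPM to 118 and 99.6 CPM. Both shNAT10 libraries were above both shControl libraries, and the log2 fold change was 0.47 ± 0.087, or 1.38-fold (edgeR, adjusted p = 0.018). SLC2A3 fell from 490 and 500 CPM to 402 and 411 CPM, again without overlap, by 0.28 ± 0.059 on the log2 scale, or 1.22-fold (adjusted p = 0.031). Between the hairpins in SW480, 20 of 38 members did not overlap, against 47.9% of all genes. Both calls depended on which genes and libraries were in the fit. They were lost when only the SW480 groups were fitted (adjusted p = 0.093 for PFKL and 0.17 for SLC2A3) and when all genes with at least 1 count were tested (0.086 and 0.085). Leaving out shControl replicate 1, shControl replicate 2 or shNAT10 replicate 1 of SW480 gave adjusted p = 0.13, 0.25 and 0.11 for PFKL and 0.18, 0.37 and 0.12 for SLC2A3, with the same direction each time. Leaving out any 1 of the 4 DLD-1 libraries kept PFKL past the threshold, at an adjusted p of at most 0.041, and took SLC2A3 just beyond it, at 0.062, 0.052, 0.079 and 0.08.

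ALDOC and BNIP3L passed the limits of the study only. ALDOC was at 32.5 and 33.3 CPM under shControl and 43.5 and 36.1 CPM under shNAT10 (log2 0.28 ± 0.10, unadjusted p = 0.017, adjusted p = 0.17). BNIP3L was at 88.2 and 89.8 CPM and then at 70.4 and 73.1 CPM (log2 -0.31 ± 0.082, unadjusted p = 0.002, adjusted p = 0.077). The groups did not overlap for either gene. SLC16A1, at 218 and 220 CPM and then 178 and 195 CPM, had a log2 fold change of -0.23 ± 0.066, short of the fold limit (unadjusted p = 0.0034, adjusted p = 0.091).

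Among the 13 enzymes from GPI to PKM, SW480 shNAT10 replicate 1 was the highest of the 4 SW480 libraries for 11, where it was the highest for 33.2% of all genes. GAPDH was at 9945 CPM in that library and at 8846, 8052 and 8698 in the other 3, and PKM at 3030 against 2580, 2513 and 2646. In DLD-1, shNAT10 replicate 1 was the highest of the 4 libraries for 7 of the 13 enzymes, against 26.4% of all genes. Without SW480 shNAT10 replicate 2, which leaves replicate 1 alone in its group, 4 members rose (ALDOA, ALDOC, PFKL and PKM) and 4 fell (BNIP3L, HIF1A, SLC2A3 and SLC16A1), on the assumption that this library varies like the others. In the same fit 2162 of all 13822 genes were called, against 229 with every library. Without any of the other 3 SW480 libraries no member was called. The part that this library has in the SW480 values was not tested further.

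In DLD-1 no member passed an adjusted p of 0.05 in edgeR, in either direction, against 0 genes higher (background 0%) and 2 lower (background 0.0147%) among all tested. DESeq2 also called none, and no member passed the limits of the study (background 1.34% higher and 1.34% lower). Of the 38 members, 2 had an unadjusted p under 0.05, PFKFB4 and VEGFA, where 5.96% of all genes did, so their number was close to the background. PFKFB4 was at 17.3 and 18.3 CPM under shControl and 20.8 and 21.3 CPM under shNAT10 (log2 0.24 ± 0.096, unadjusted p = 0.023, adjusted p = 0.81 in edgeR). VEGFA was at 163 and 153 CPM and then 145 and 133 CPM (log2 -0.18 ± 0.073, unadjusted p = 0.025, adjusted p = 0.81). For the genes called in SW480, the values in DLD-1 were a log2 fold change of 0.10 ± 0.082 for PFKL and -0.40 ± 0.19 for SLC2A3 (adjusted p = 0.92 and 0.89), the latter from 2.23 and 2.6 CPM to 1.88 and 1.77 CPM. For ALDOC they were 0.29 ± 0.21 and for BNIP3L -0.15 ± 0.084, the latter from 71.4 and 61.1 CPM to 57.6 and 62.1 CPM.

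The hairpin effects were then tested against each other, as SW480 minus DLD-1. No member differed (adjusted p of 0.47 or more in edgeR, and 0.27 or more in DESeq2), against 0 genes higher (background 0%) and 1 lower (background 0.00734%), which was NAT10. At an unadjusted p under 0.05 there were 4 members, near the background of 9.38% of all genes, namely PFKL (0.36 ± 0.12), PFKFB3 (-0.35 ± 0.12), PDK2 (0.37 ± 0.16) and SLC16A1 (-0.22 ± 0.092). The PFKL difference passed without SW480 shNAT10 replicate 2 (0.48, adjusted p = 0.033). NAT10 itself was lowered to a different degree in the 2 lines.

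**Figure D2:**
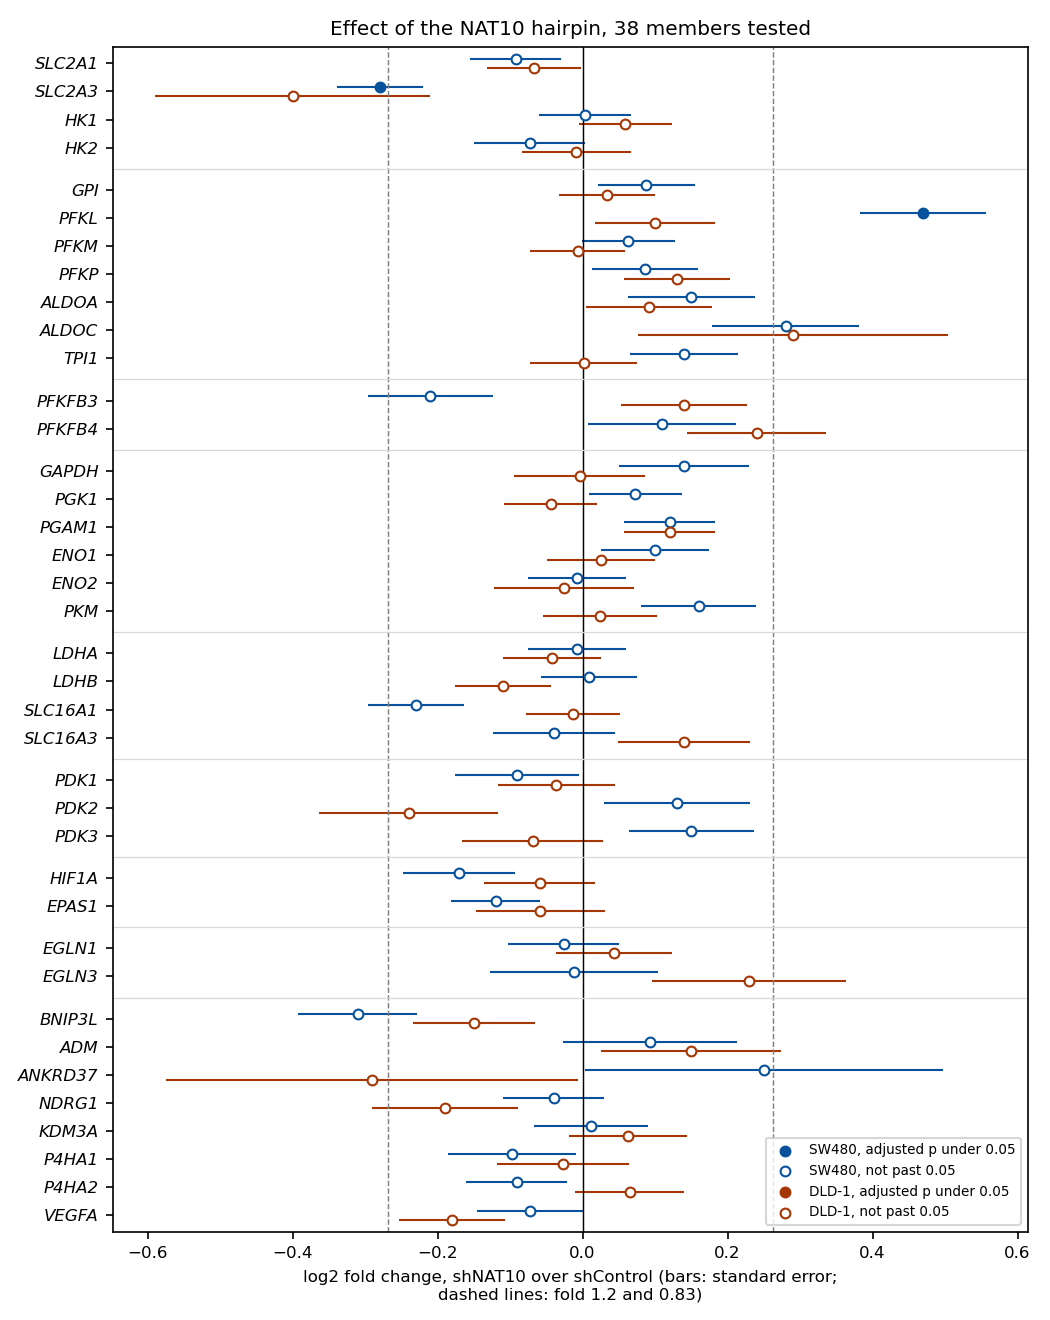
Log2 fold change of shNAT10 over shControl with its standard error for the 38 genes tested, in SW480 and in DLD-1, filled where the adjusted p was under 0.05 and with dashed lines at folds of 1.2 and 0.83. The 2 filled points are PFKL (0.47) and SLC2A3 (-0.28) in SW480, and no DLD-1 point is filled.

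Other genes of the same pathways were followed in lists of 125 genes, of which 108 were tested. Between the lines under shControl, 51 were higher in SW480 (47.2%, background 38.1%) and 31 lower (28.7%, background 35.6%). By list, 8 of 18 further isozymes and branch-point genes of glycolysis were higher (44.4%) and 4 lower (22.2%), and 5 of 16 pentose phosphate and glycogen genes were higher (31.2%) and 8 lower (50%). Of 25 genes of pyruvate entry and the TCA cycle, 14 were higher (56%) and 5 lower (20%). Of 16 further regulators of HIF, 4 were higher (25%) and 6 lower (37.5%), and of 33 further HIF targets 20 were higher (60.6%) and 8 lower (24.2%). Without regard to sign, the median log2 fold change of these 33 targets was 1.39, against 0.54 for all genes. The lists were chosen with earlier results of these data known, and they were not tested against other genes. STC2, a secreted glycoprotein, was at 404 and 379 CPM in SW480 shControl and had 0 counts in both DLD-1 shControl libraries, which makes it at least 2214-fold higher when 3 counts per library are assumed there. The lipid droplet gene PLIN2 was at 150 and 142 CPM against 0.587 and 0.829 CPM. CXCR4, a chemokine receptor, was at 8.44 and 11.8 CPM in SW480 and at 0 counts in DLD-1 shControl (at least 57.2-fold higher). HKDC1 had 2381 counts in SW480 shControl and 2 in DLD-1 shControl (ratio 1189, 95% interval 329 to 9821, for counting error only). In the other direction, PLOD2, a collagen lysyl hydroxylase, had 0 counts in SW480 shControl and 91.6 and 89.9 CPM in DLD-1 shControl, at least 514-fold higher in DLD-1. FBP1, the gluconeogenic enzyme that opposes phosphofructokinase, had 1 count in SW480 shControl and 663 in DLD-1 shControl (ratio 664, interval 119 to 26266, again for counting error only). CITED2, a negative regulator of HIF, was at 28.1 and 27.5 CPM against 118 and 126 CPM, GPRC5A at 64.4 and 63.2 against 216 and 210, and the glycogen synthase GYS1 at 33.1 and 36.1 against 93.5 and 88.9.

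Under the hairpin in SW480, 4 of these 108 genes rose (background 0.778%) and 1 fell (background 0.903%), and in DLD-1 none passed in edgeR (7 at an unadjusted p under 0.05, background 5.96%). GYS1 rose from 33.1 and 36.1 CPM to 45.7 and 45.5 CPM (log2 0.40 ± 0.0785, adjusted p = 0.023). The pentose phosphate enzyme TKT rose by 0.30 ± 0.064 and the succinate dehydrogenase subunit SDHB by 0.28 ± 0.065 (adjusted p = 0.032 and 0.043). TFRC, the transferrin receptor, fell from 312 and 317 CPM to 231 and 264 CPM (log2 -0.35 ± 0.0775, adjusted p = 0.041). In DLD-1 these 4 genes had log2 fold changes of 0.26 ± 0.071 (GYS1), 0.067 ± 0.064 (TKT), 0.0043 ± 0.065 (SDHB) and -0.049 ± 0.0785 (TFRC), and none of these passed (adjusted p of 0.54 or more).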

How the data were processed

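The authors deposited estimated counts per RefSeq transcript, not normalized, and FPKM values per library, after processing by BGI of single-end reads of 50 bases from oligo(dT)-purified RNA. The submitters' processing notes name HISAT2 2.0.4, Bowtie2 2.2.5, RSEM 1.2.12 and hg38, without their roles. The counts were summed per gene, rounded, filtered with filterByExpr (minimum count 10, minimum total 15; 13619 genes kept), normalized by TMM and fitted as 4 groups without a replicate term with the quasi-likelihood test of edgeR 4.0.16 in R 4.3.3. P-values were adjusted by Benjamini-Hochberg over all genes tested. Standard errors were taken from the F statistic, as log2 fold change without its sign over root F. FPKM values of SW480 shNAT10 replicate 2 end early (18.6% of transcripts without a value), so FPKM shares use shControl libraries. Symbols came from RefSeq names (99.3% of genes). Genes with every value printed were NAT10, members past a threshold under the hairpin, members failing the filter, and the 16 members with the largest called line difference. Of the other pathway genes, those called under the hairpin and the 5 highest and 5 lowest between the lines were named, except for genes counted in the lists but not reported here by name, and values of further genes were added after they were seen. Lists and members were chosen with earlier results of these data known. Nothing says whether replicates were separate infections, so p-values measure the spread between these libraries. The fit was tested on simulated data, with changes placed only in genes above a count minimum. It recovered 99% of log2 changes of 1 and 74% to 84% of those of 0.5. Of its calls, 6% to 7.6% were false. Each simulated comparison changed only 100 genes by each amount, where 10046 were called between the lines under shControl. Its noise followed the spread that the fit estimated, the same in every group. These shares therefore do not give the error rate of the calls reported here. Alternatives used DESeq2 1.42.0, limma 3.58.1 on log2 FPKM, other filters and scalings, and fits without 1 library.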

Additional observations from a re-analysis of the deposited data

Results flagged for a closer look

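PFKFB3 and P4HA2 had differences of opposite sign in the 2 lines, with both shNAT10 libraries of SW480 below both shControl libraries and both shNAT10 libraries of DLD-1 above theirs. Neither gene passed in either line, and groups without overlap were common, at 47.9% of all genes in SW480 and 35.9% in DLD-1. PFKFB3 was at 29.5 and 31.2 CPM and then 26.8 and 25.8 CPM in SW480, and at 26.1 and 27.7 CPM and then 30.7 and 28.6 CPM in DLD-1. The difference between its hairpin effects was -0.35 ± 0.12 (SE, log2), with an unadjusted p = 0.012 and an adjusted p = 0.49 in edgeR. P4HA2 was at 108 and 117 CPM and then 106 and 105 CPM in SW480, and at 48.3 and 48.5 CPM and then 50.5 and 50.8 CPM in DLD-1. Its difference was -0.16 ± 0.10 (adjusted p = 0.63). Neither difference passed the test.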

How the results depend on the processing

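The line differences of the 16 named members kept their direction and their side of the threshold under every alternative that gave a value, in the shControl and the shNAT10 libraries (260 values each). The counts of members moved by over 1.5 times only with FPKM values, where 20 members could be tested and log2(FPKM + 1) and log2(FPKM + 0.1) alike gave 11 higher and 3 lower in SW480 under shControl and 3 lower under shNAT10. Over all 38 members, 6 crossed the threshold in some alternative under shControl (PFKM, PFKFB3, ENO1, PKM, HIF1A and P4HA1) and 12 under shNAT10, where LDHB (adjusted p = 0.53), ENO1 (0.088) and others did so with the GC correction, which also turned HIF1A to 0.25. With FPKM the median of the 20 members tested was 0.407 and 0.427 under shControl and 0.394 and 0.418 under shNAT10. These medians leave out the other members, so they cannot be compared with the medians over 38 members. Leaving out 1 library gave 17 to 20 higher and 7 to 8 lower under shControl, and 19 to 22 and 5 to 8 under shNAT10. For the hairpin in SW480, no member was called in either direction (0 and 0) when genes with a total count of at least 1 were tested, when only the groups compared were fitted, or with FPKM at either pseudocount, and leaving out 1 library gave 0 to 4 higher and 0 to 4 lower. At the limits of the study DESeq2 gave 1 higher in SW480, FPKM at either pseudocount 0 higher, and a correction for GC content, chosen after seeing the data, 1 higher and 0 lower. Leaving out 1 library gave 1 to 3 higher and 1 to 4 lower there. In DLD-1 these limits gave 2 lower with log2(FPKM + 0.1), and 0 to 1 higher and 0 to 1 lower without 1 library. For the difference between the hairpin effects, leaving out 1 library gave 0 to 1 member higher, PFKL without SW480 shNAT10 replicate 2. The cause of these shifts was not tested, beyond the fewer genes and samples that enter some fits. Over all genes, the hairpin called 229 in SW480, 41 with a total count of at least 1, 29 with only the groups compared, and 17 to 2162 without 1 library, and in DLD-1 2, 38 with only the groups compared, 15 with DESeq2, 21 with the GC correction and 1 to 29 without 1 library.

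Replicate numbers do not pair the samples by the labels, and the correlation of same-numbered deviations between groups was -0.00535 to 0.128 over genes. With a replicate block, 2 members rose (PFKL, ALDOC) and 3 fell (SLC2A3, BNIP3L, SLC16A1) in SW480, PFKL differed between the lines (1 higher, log2 0.36), and all-gene calls went to 1654 in SW480 and 65 in DLD-1. CA9 and BNIP3 had too few counts to be tested.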
